A study of Mus musculus with 9 samples.

Results

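Open chromatin at the NFAT (nuclear factor of activated T cells) family genes Nfatc1, Nfatc2, Nfatc3 and Nfat5 was described in naive CD4+ T cells of 3 mouse genotypes. A peak, a stretch of the genome where sequenced fragments pile up, was counted for a gene when the table named that gene, or when it was intergenic and lay within 50 kb of the gene's transcripts. This rule took 111 of the 115727 peaks in the table. Nfatc1 had 48 of them (36 assigned to the gene and 12 intergenic), Nfatc2 had 37 (28 and 9), Nfatc3 had 20 (17 and 3) and Nfat5 had 6 (4 and 2). Of the 26 intergenic peaks, 9 lay nearer to the start site of another gene.

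The data are ATAC-seq, in which a transposase cuts accessible DNA and inserts sequencing adapters there. Untreated naive CD4+ T cells came from C57BL/6 mice that were WT, carried a Stat6 knockout (Stat6_KO) or carried an Il21e knockout (Il21e_KO), with 3 libraries per genotype and 9 in all. Stat6 encodes the transcription factor that the Il4 receptor activates; the other allele appears in the labels as Il21e KO and as IL21KO, with no word on the DNA it lacks. The labels do not tell whether the 3 libraries of a genotype came from separate animals, so every p-value measures the spread between these libraries, which may be technical.

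NFAT proteins wait in the cytoplasm of a resting T cell in phosphorylated form. Antigen receptor signals open calcium channels, calcium activates the phosphatase calcineurin, and the dephosphorylated NFAT proteins enter the nucleus, where they bind DNA around a GGAAA core, often together with AP-1. Nfatc2 and Nfatc3 are present before stimulation, Nfatc1 is known for being induced by activation through an upstream promoter, and Nfat5 lacks calcineurin control and drives the response to osmotic stress. In bulk samples, fewer cells with an open site and a less open site in each cell cannot be told apart.

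The promoter letters of Nfatc2 and Nfat5 are shown because, of the 3 genes with a matched RefSeq promoter, Nfatc2 had the most peaks and a pair of start sites, and Nfat5 had the fewest peaks and 70.4% of its reads at 1 start site. They are the 250 bases before each start in RefSeq on GRCm38.p6, a later build than the mm9 coordinates of the peaks, with each GGAAA (or TTTCC, its reverse complement) in capitals. The first Nfatc2 promoter is chr2:168601658-168601907 and the second chr2:168590366-168590615, both on the minus strand, and the Nfat5 promoter is chr8:107293220-107293469 on the plus strand. The Nfatc2 starts are 11292 bases apart in RefSeq, as they are in the peak table.
Nfatc2 upstream start: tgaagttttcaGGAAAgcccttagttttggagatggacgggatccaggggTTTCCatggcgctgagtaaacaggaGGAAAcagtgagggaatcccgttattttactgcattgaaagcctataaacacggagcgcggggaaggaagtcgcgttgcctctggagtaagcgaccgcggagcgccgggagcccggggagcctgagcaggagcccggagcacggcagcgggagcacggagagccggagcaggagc
Nfatc2 downstream start: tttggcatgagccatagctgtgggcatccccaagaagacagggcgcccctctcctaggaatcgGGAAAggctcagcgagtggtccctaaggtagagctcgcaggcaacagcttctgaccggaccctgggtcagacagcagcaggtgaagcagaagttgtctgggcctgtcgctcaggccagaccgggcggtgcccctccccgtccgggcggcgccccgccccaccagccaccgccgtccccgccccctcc
Nfat5 start: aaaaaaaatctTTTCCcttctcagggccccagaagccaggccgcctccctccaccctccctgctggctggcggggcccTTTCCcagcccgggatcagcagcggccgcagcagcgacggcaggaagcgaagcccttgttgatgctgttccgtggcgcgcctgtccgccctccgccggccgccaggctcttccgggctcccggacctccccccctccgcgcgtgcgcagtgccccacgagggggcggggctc

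The upstream Nfatc2 promoter held 3 NFAT cores, the downstream one 1 and the Nfat5 promoter 2. Nfatc3 has a pair of starts in RefSeq, 772 bases apart, of which the first held 1 core and the second 0, while the peak table gives Nfatc3 1 start. GGAAA on either strand occurs in 55.6% of 32851 RefSeq promoters of the same length, so its presence does not set these genes apart. AP-1 sites (TGANTCA, in 6.75% of promoters) and the STAT6-type element (TTC, any 4 bases, then GAA, in 5.85%) were searched on both strands, and these letters were found in none of the 5 windows. GC boxes (GGGCGG, in 32.7% of promoters) numbered 4 at the downstream Nfatc2 start, 2 at Nfat5, 2 at the second Nfatc3 start and 0 at the other 2 starts. The downstream Nfatc2 promoter was 67.6% G or C, the Nfat5 promoter 71.6% and the upstream Nfatc2 promoter 59.6%, against a median of 52.4% over all promoters; the first and second Nfatc3 promoters were 49.6% and 65.2%. CpG counts were 16, 23 and 19 in the first 3 of these and 6 and 22 at Nfatc3, against a median of 6.

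Reads in peaks per library ranged from 1049460 to 1802405. Values are in CPM, reads scaled to that library's total in peaks, so that 1 read is worth 0.555 to 0.953 CPM. The library Il21e_KO 1 stood apart: 27200 of all peaks had no read in it, against 3898 to 12916 elsewhere, and 42.7% of its reads fell at transcription start sites, against 31.6% to 36.4%. The upper ends elsewhere were WT libraries. WT 1 to 3 had 11963, 12916 and 6749 peaks without a read, and 36.4%, 35.6% and 32.3% of reads at starts. The Stat6_KO libraries had 3898 to 5954 such peaks and 31.6% to 33.3% at starts. The part of this difference in Stat6_KO against WT was not tested. Changes at several NFAT peaks are given with and without Il21e_KO 1. Those of the other pathway genes are given only with it. The naive T cell genes Cd4 and Cd3e had mean summed levels of 60.1 and 47.7 CPM over their peaks. Genes of other cell types were not uniformly closed: the B cell list (5 of 5 genes listed) ran from 3.03 CPM at Cd79a to 64.5 at Ebf1, the natural killer list (4 of 4) from 1.48 at Klrb1c to 37.1 at Eomes, and the myeloid list (5 of 6) from 6.35 at Csf1r to 80.7 at Itgam. In the CD8 list (3 of 4) Cd8a had 14.9 CPM, Cd8b1 48.4 and Crtam 53.8. The summed B cell list ranged from 84.4 to 132 CPM in WT, 54.3 to 126 in Il21e_KO and 119 to 129.6 in Stat6_KO; its part in the results was not tested. In the Stat6 gene itself, a peak in coding exon 12 had 1.77 to 2.84 CPM in Stat6_KO, below the 6.73 to 12.3 of WT and the 4.76 to 9.45 of Il21e_KO, and a peak in coding exon 16 was higher in Stat6_KO (15.3 to 23.3) than in both others (1.91 to 10.96 together).

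Among the 4 genes, Nfatc1 was the densest in assigned peaks and Nfat5 the sparsest, with Nfatc2 and Nfatc3 close to each other between them. On mm9, Nfatc1 spans chr18:80802944-80909811 (minus strand, 106.867 kb) and carried 3.37 assigned peaks per 10 kb, covering 18.0% of the span. Nfatc2 spans chr2:168301910-168427158 (minus strand, 125.248 kb) with 2.24 peaks per 10 kb and 13.03% covered. Nfatc3 spans chr8:108583503-108654438 (plus strand, 70.935 kb) with 2.40 per 10 kb and 11.9% covered. Nfat5 spans chr8:109817370-109903418 (plus strand, 86.048 kb) with 0.465 per 10 kb and 3.73% covered. By number of peaks, Nfatc1 stood at the 99.1st percentile of genes with a peak, Nfatc2 at the 98.3rd, Nfatc3 at the 95.4th and Nfat5 at the 63.6th. A further family member, Nfatc4, had 1 peak with 1 to 6 reads per library (mean 2.37 CPM), too few to test.

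**Figure D1:**
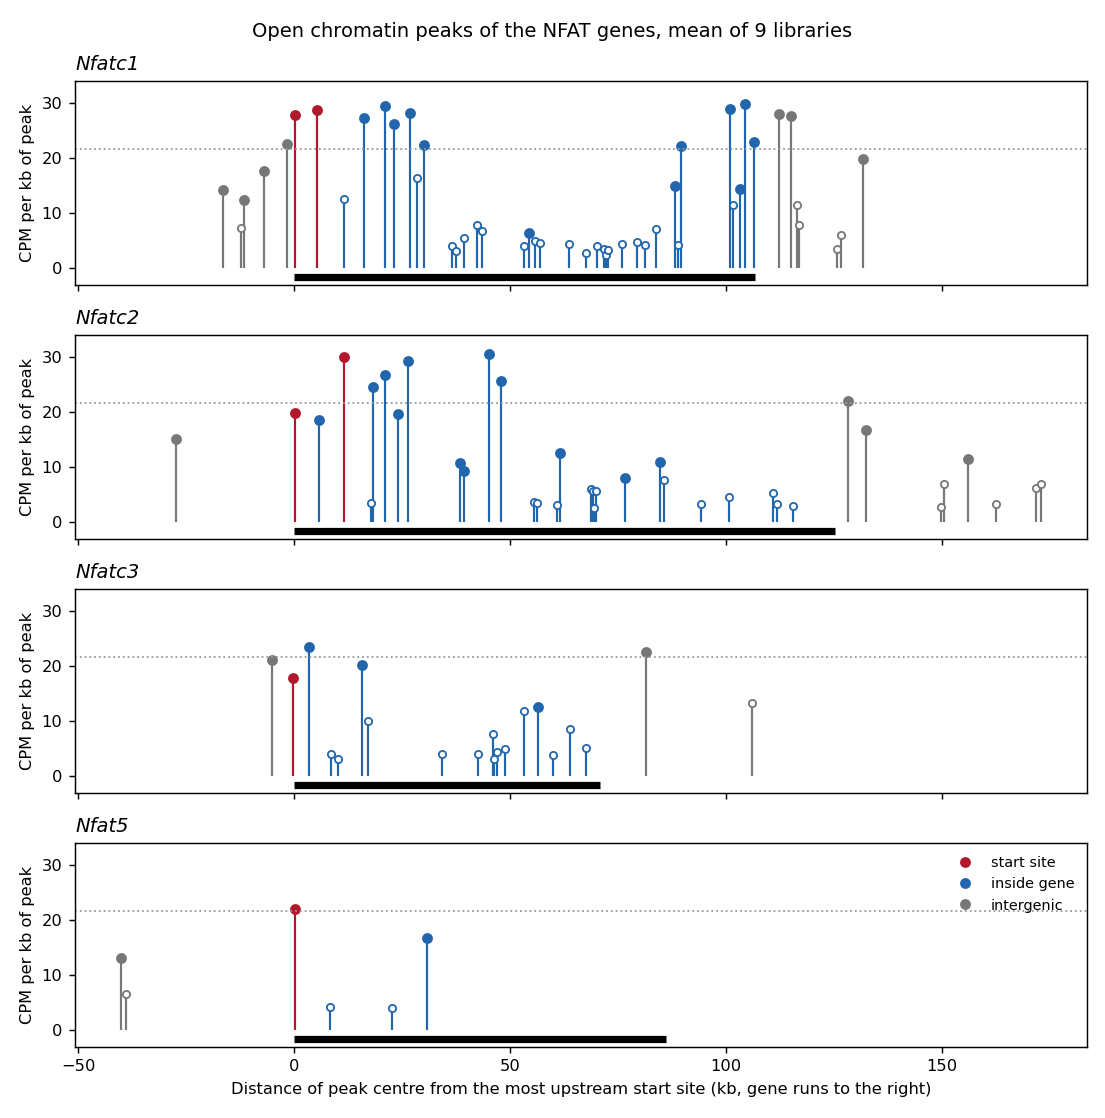
Mean level of each peak over the 9 libraries, in CPM per kb of peak, against the distance in kb of its centre from the gene's most upstream start. Filled points passed the read filter, open points did not, the black bar is the gene and the dotted line is the median of all start-site peaks (21.6). Nfatc1 has a block of open peaks at each end, Nfatc2 has one in its first 48 kb, and Nfat5 has 1 peak that reaches the line.

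Within Nfatc1 the peaks formed a pair of open blocks with a low middle (block limits were chosen after the values were seen). From 0 to 33 kb after the upstream start, 9 peaks had a median of 27.3 CPM per kb and 7 of them reached 21.6 CPM per kb, the median of all start-site peaks. From 35 to 85 kb, 19 peaks had a median of 4.34 CPM per kb, none above 7.94. From 88 kb to the end of the gene, 8 peaks had a median of 18.6 CPM per kb and 4 reached the start-site median, as did 2 of the 3 peaks in the next 10 kb (median 27.7). The 3 stretches within the gene held a summed 203, 33.97 and 97.9 CPM. At Nfatc2, 12 peaks between 0 and 48 kb had a median of 22.2 CPM per kb, and 16 from 55 kb to the end of the gene had a median of 4.92, none above 12.6. In the 10 kb past its end lay 2 further peaks, at 16.8 and 21.9 CPM per kb.

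Counting all peaks away from start sites, 12 of 46 at Nfatc1 (26.1%) were at least as open per kb as the median start-site peak, 6 of 35 at Nfatc2 (17.1%), 2 of 19 at Nfatc3 (10.5%) and 0 of 5 at Nfat5. Over the whole table the share was 11.5% of 101119 such peaks. The median peak away from a start differed little between the genes, at 7.87, 7.01, 7.61 and 6.50 CPM per kb in the same order, and was 7.63 in the whole table. The table puts 51 of the 111 peaks in introns (45.9%, against 31.0% of all peaks), 26 between genes (23.4% against 36.0%) and 6 at start sites (5.41% against 12.6%). The rule takes every peak assigned to these genes but intergenic peaks only within 50 kb, so it partly sets these shares. At Nfatc1, windows of 20, 50 and 100 kb hold 11, 12 and 20 intergenic peaks. The table calls 16 of the 111 peaks 5′ UTR exon; 14 of these are Nfatc2 peaks between 5.69 and 61.7 kb after its upstream start, a stretch far longer than a single exon of that kind would be, and the class was not checked against exon coordinates.

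Nfat5 stood apart from the other members in the share of its reads at start sites. Of the reads in assigned peaks, 25.0% lay at the start sites of Nfatc1, 28.6% at those of Nfatc2, 31.4% at that of Nfatc3 and 70.4% at that of Nfat5. Over all peaks of the table, intergenic ones included, the share was 31.6% to 42.7% per library. Among 14608 start-site peaks of the table, whose median was 23.7 CPM, the downstream Nfatc2 start was at the 97.9th percentile, the downstream Nfatc1 start at the 94.8th, the Nfat5 start at the 84.1st, the upstream Nfatc1 start at the 74.9th, the Nfatc3 start at the 71.0th and the upstream Nfatc2 start at the 32.7th. Peaks differ in length, and per kb the order changes: 29.9 CPM per kb at the downstream Nfatc2 start, 28.7 and 27.8 at the downstream and upstream Nfatc1 starts, 22.0 at Nfat5, 19.8 at the upstream Nfatc2 start and 17.9 at Nfatc3.

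**Figure D2:**
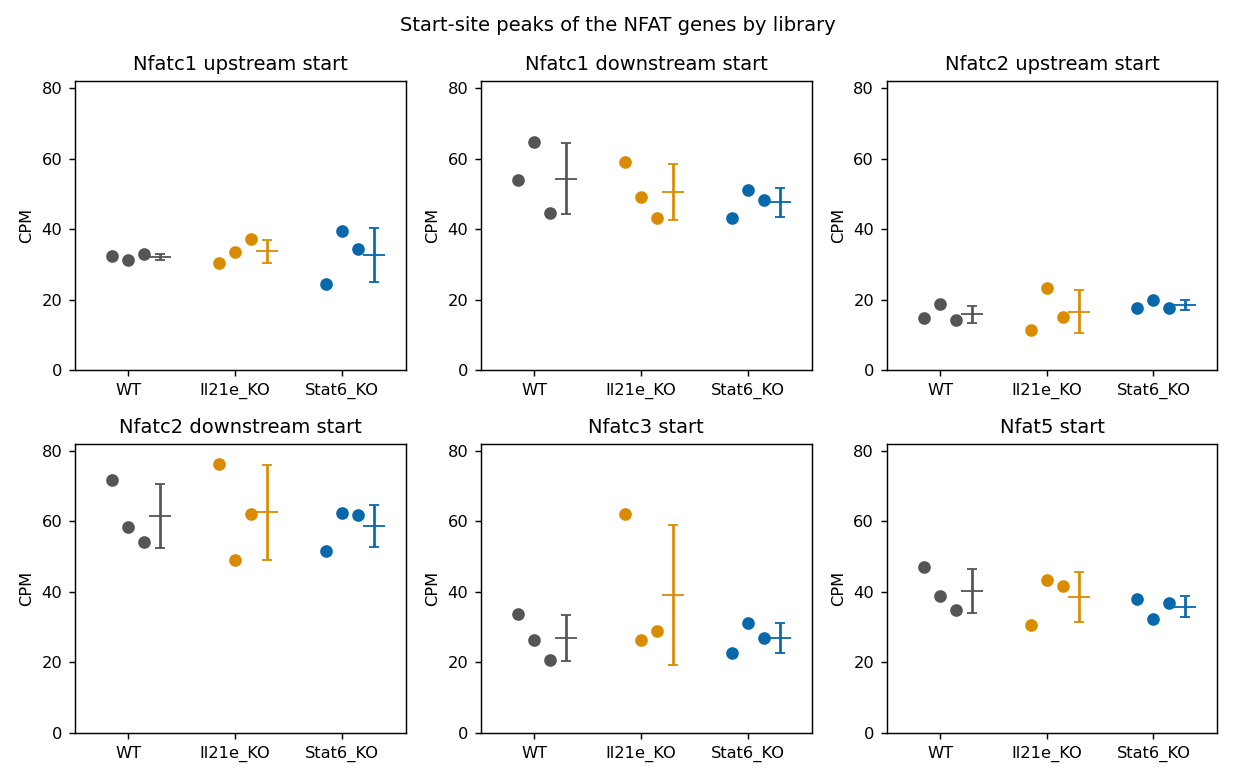
CPM of the 6 start-site peaks in each library, with points in the order of replicates 1 to 3 and bars for the mean ± SD of each genotype (n = 3). The downstream start of Nfatc2 is above its upstream start in all 9 libraries, and the Nfatc3 start in Il21e_KO 1 (61.9 CPM) lies above the other 8 libraries (20.6 to 33.7 CPM).

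Nfatc1 encodes the family member that T cells induce on activation. Its upstream start (chr18:80908964-80910145) had 32.4, 31.1 and 32.9 CPM in WT libraries 1 to 3, 30.5, 33.4 and 37.2 in Il21e_KO and 24.4, 39.4 and 34.3 in Stat6_KO. The 3 genotypes overlapped, and the WT values lay closest together. Its downstream start (chr18:80903646-80905416) had 53.8, 64.6 and 44.5 CPM in WT, 59.1, 49.2 and 43.3 in Il21e_KO and 43.2, 51.2 and 48.3 in Stat6_KO. Here too the genotypes overlapped. The ratio of the downstream to the upstream peak was above 1 in 9 of 9 libraries (1.16 to 2.08). The downstream peak is also the longer one; per kb the mean levels were 28.7 and 27.8 CPM, and the downstream peak was the higher one in 4 of 9 libraries.

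Nfatc2 encodes the member that resting T cells already hold. Its upstream start (chr2:168426587-168427445) had 14.7, 18.7 and 14.2 CPM in WT, 11.4, 23.3 and 14.98 in Il21e_KO and 17.6, 20.02 and 17.7 in Stat6_KO. Its downstream start (chr2:168414657-168416689) had 71.6, 58.4 and 54.2 CPM in WT, 76.2, 49.2 and 62.1 in Il21e_KO and 51.7, 62.4 and 61.8 in Stat6_KO. The downstream peak had more reads in every library, by 2.11 to 6.67 times. It is also longer; per kb it averaged 29.9 against 19.8 CPM and was the higher one in 8 of 9 libraries, the exception being Il21e_KO 2 with 24.2 against 27.2 CPM per kb. The ratio of reads averaged 3.94 ± 0.881 in WT, 4.31 ± 2.28 in Il21e_KO and 3.18 ± 0.279 in Stat6_KO (SD, n = 3), and the genotypes overlapped.

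Nfatc3, a further calcium-controlled member, has 1 start in the table (chr8:108582465-108584194), with 33.7, 26.5 and 20.6 CPM in WT, 61.9, 26.5 and 28.9 in Il21e_KO and 22.7, 31.2 and 26.9 in Stat6_KO. Il21e_KO 1 was alone at the high end; in that library the start took 55.6% of the gene's reads, against 21.1% to 34.6% in the other 8. The Nfat5 start (chr8:109816802-109818536) had 47.1, 38.9 and 34.8 CPM in WT, 30.5, 43.5 and 41.6 in Il21e_KO and 38.1, 32.4 and 36.7 in Stat6_KO, with all 3 genotypes overlapping.

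Away from the starts, the highest Nfatc1 peaks were in coding exon 2 (chr18:80893006-80894376, 16.1 kb after the upstream start) with a mean of 37.4 CPM and in intron 9 (chr18:80808188-80809418, 101 kb after it) with 35.5 CPM. In the second of these, Il21e_KO 1 had 58.1 CPM and the other 8 libraries 24.4 to 43.6. The highest Nfatc2 peaks lay 45.1 kb into the gene (chr2:168381425-168382722, 39.7 CPM) and in intergenic DNA past its end (chr2:168298284-168299572, 128 kb from the upstream start, 28.3 CPM). Those of Nfatc3 were in intron 1 (chr8:108598576-108599674, 22.1 CPM) and 5.17 kb before the start (chr8:108577910-108578748, 17.8 CPM). For Nfat5 they were in coding exon 2 (chr8:109847771-109848554, 13.2 CPM) and 40.1 kb before the start (chr8:109777033-109777590, 7.28 CPM), where the nearest start belongs to Mir5098. All 4 of these peaks at Nfatc1 and Nfatc2 exceeded the median of all start-site peaks (23.7 CPM), and none of the 4 at Nfatc3 and Nfat5 did. They were picked as the highest from unequal numbers of peaks away from starts: 46, 35, 19 and 5 in the order of the genes above. CPM also grows with peak length, and per kb 2 Nfatc3 peaks reached the start-site median while 0 Nfat5 peaks did.

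Summed over assigned peaks, the 4 genes kept 1 order in all 9 libraries. Nfatc1 had 311, 371 and 341 CPM in WT, 329.7, 352 and 332 in Il21e_KO and 309, 329.7 and 336 in Stat6_KO. Nfatc2 had 274, 265 and 283 CPM in WT, 253, 261 and 281 in Il21e_KO and 262, 297 and 275 in Stat6_KO. The highest Nfatc2 library was thus below the lowest Nfatc1 library. Nfatc3 had 97.3, 86.4 and 98.02 CPM in WT, 111, 96.4 and 93.8 in Il21e_KO and 96.0, 103.6 and 104 in Stat6_KO. Nfat5 had 67.3, 49.8 and 55.5 CPM in WT, 44.8, 56.1 and 54.4 in Il21e_KO and 58.5, 49.5 and 52.0 in Stat6_KO. No value of one gene reached into the range of another. Sums grow with the amount of DNA in peaks. Per kb of peak Nfatc3 was the lowest, and the other members lay close together. The levels were 17.4 CPM for Nfatc1, 16.7 for Nfatc2, 11.7 for Nfatc3 and 16.9 for Nfat5 (55.3rd, 50.9th, 26.7th and 52.1st percentile of genes). Over the 9 libraries the sums varied with a coefficient of variation of 5.71%, 5.03%, 7.22% and 11.9% in that order, on 346 to 598 reads per library for Nfatc1.

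**Figure D3:**
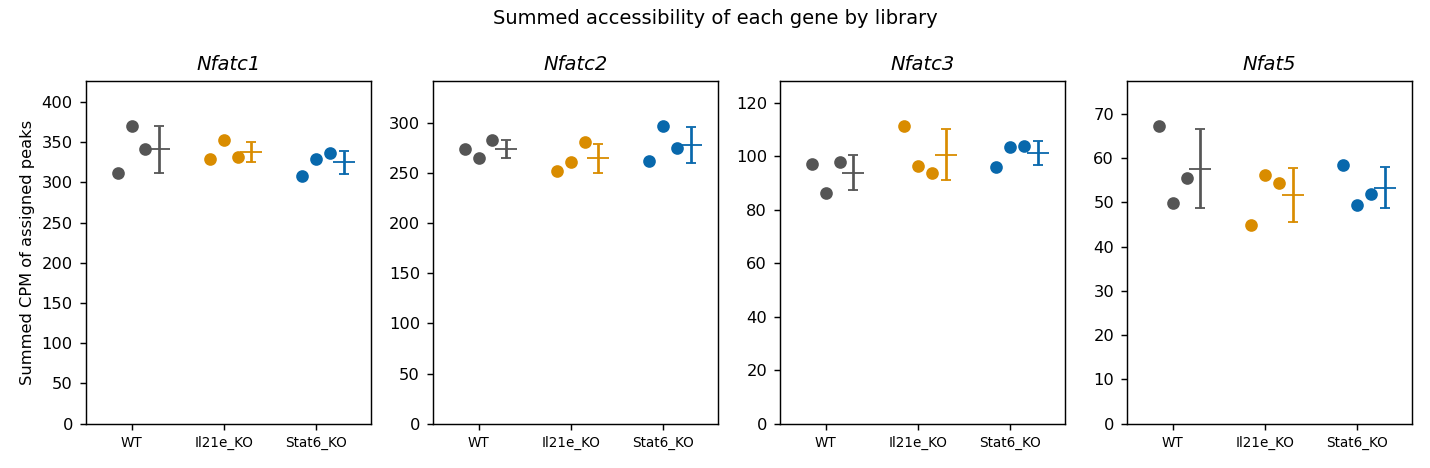
Summed CPM over the assigned peaks of each gene, 1 point per library in the order of replicates 1 to 3, with the mean ± SD of each genotype (n = 3); each gene has its own axis from 0. The 3 genotypes overlap at every gene.

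In Stat6_KO against WT, no NFAT gene's summed level passed the test. At Nfatc1 the summed level was 325 ± 14.5 CPM in Stat6_KO and 341 ± 29.6 in WT (SD, n = 3), and the 95% interval of the fold was 0.867 to 1.05. The intervals were 0.920 to 1.11 at Nfatc2 (278 ± 17.9 against 274 ± 8.81 CPM), 0.930 to 1.25 at Nfatc3 (101 ± 4.49 against 93.9 ± 6.50) and 0.754 to 1.16 at Nfat5 (53.3 ± 4.68 against 57.5 ± 8.92). None of the 4 genes passed the test (limma-trend on log2(CPM + 1), FDR of 0.05), nor did any of the 14039 genes tested (0% called); at an unadjusted p under 0.05 limma-trend, edgeR, DESeq2 and limma-voom each took 0 of the 4, against 3.06% of all genes by limma-trend. All 4 genes' groups overlapped.

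Peak by peak, 48 of the 111 had enough reads to be tested (21 at Nfatc1, 18 at Nfatc2, 6 at Nfatc3 and 3 at Nfat5). The other 63 had at most 13 reads in any library. Of the 48 tested peaks, 4 averaged at least 10 reads per library in 1 genotype only, and the counts of peaks without overlap include such peaks. In Stat6_KO against WT 0 of the 48 passed, where 0.0104% of the 48287 tested peaks did. At an unadjusted p under 0.05, limma-trend took 2 of the 48, edgeR 3, DESeq2 0 and limma-voom 4. Over all tested peaks the shares were 3.29%, 3.66%, 0.951% and 4.10% in the same order. All 9 libraries share 1 estimate of spread, so Il21e_KO 1 enters the errors, intervals and p of this comparison too. Without Il21e_KO 1 limma-trend took 5 of the 48, against 9.28% of all peaks, and with array weights, which give a library of larger spread less weight, 8, against 10.2%. In a fit of Stat6_KO and WT alone it took 6 of 47, against 8.46%. The lowest adjusted p at an NFAT peak was 0.277 without Il21e_KO 1 and 0.365 with these 2 groups alone (limma-trend). In the fit of all 9 libraries, log2 changes ran from -0.70 to 1.07 with a median of 0.01, against -0.0046 over all tested peaks. The genotypes did not overlap at 3 peaks that were higher in Stat6_KO (6.25% of the 48, against 6.31% of all tested peaks) and at 4 that were lower (8.33% against 6.89%), shares close to those of the whole table. Listed after their values were seen, the higher ones were at the end of Nfatc1, 38.4 kb into Nfatc2 and in Nfatc3 intron 1. The lower ones were in Nfatc1 introns 6 and 9, 26.5 kb into Nfatc2 and in the intergenic DNA past Nfatc3, where the nearest start belongs to Esrp2.

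The 2 peaks with the smallest p were both lower in Stat6_KO. At the Nfatc2 peak 26.5 kb into the gene (chr2:168400224-168401129), WT had 36.1, 27.2 and 27.1 CPM, Il21e_KO 33.4, 24.6 and 26.6, and Stat6_KO 22.2, 20.6 and 20.8. Stat6_KO lay below both other genotypes without overlap, with a log2 change of -0.48 ± 0.19 (SE) from WT that did not pass the test (limma, adjusted p = 1.00). At the Nfatc1 peak in intron 9, 104 kb from the upstream start (chr18:80805048-80805631), WT had 20.8, 17.9 and 26.4 CPM, Il21e_KO 17.2, 15.1 and 14.4, and Stat6_KO 14.8, 14.1 and 15.9. Both knockouts lay below WT without overlap, at -0.50 ± 0.20 for Stat6_KO (limma, adjusted p = 1.00) and -0.44 ± 0.20 for Il21e_KO (limma, adjusted p = 1.00). The comparisons share the WT libraries, so the second value is no repeat of the first.

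At Nfatc3 the smallest p was at the peak 5.17 kb before the start, with 21.4, 25.7 and 13.5 CPM in WT, 33.4, 13.9 and 13.9 in Il21e_KO and 13.6, 14.1 and 10.4 in Stat6_KO. The groups overlapped (-0.60 ± 0.30, limma, adjusted p = 1.00). At Nfat5 it was the start itself (-0.16 ± 0.18, limma, adjusted p = 1.00). The peak in Nfatc3 intron 1 had 21.4, 21.0 and 19.99 CPM in WT and 27.8, 21.8 and 22.6 in Stat6_KO, without overlap but with a change of only 0.19 ± 0.18.

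Il21e_KO was compared with WT in the same fit. Summed levels were 338 ± 12.5 CPM at Nfatc1, 265 ± 14.5 at Nfatc2, 101 ± 9.56 at Nfatc3 and 51.7 ± 6.09 at Nfat5 (SD, n = 3). The 95% intervals of the fold from WT were 0.901 to 1.09, 0.876 to 1.06, 0.922 to 1.24 and 0.730 to 1.12. By limma-trend 0 of the 4 genes passed (0% of all genes did), and 0 had an unadjusted p under 0.05 by limma-trend, edgeR, DESeq2 or limma-voom, against 2.59% of all genes by limma-trend. Of the 48 tested peaks 0 passed (0% of all tested peaks did). At an unadjusted p under 0.05, limma-trend took 2, edgeR 2, DESeq2 0 and limma-voom 1. Over all tested peaks the shares were 3.52%, 2.56%, 0.654% and 2.58% in the same order. Without Il21e_KO 1 limma-trend took 4, against 6.91% of all peaks. There was 1 peak without overlap that was higher (2.08%, against 2.84%) and 2 that were lower (4.17%, against 4.44%). The higher one was an intergenic peak before the upstream Nfatc1 start, and both lower ones are in Nfatc1, in introns 6 and 9. The median log2 change of the 48 peaks was -0.04, against -0.03 over all tested peaks.

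The Nfatc1 peak in intron 6 (chr18:80854945-80855917) had 7.95, 7.79 and 10.96 CPM in WT, 0.953, 6.30 and 5.55 in Il21e_KO and 6.82, 5.89 and 3.06 in Stat6_KO. All knockout values were below all WT values, at -1.11 ± 0.46 for Il21e_KO (limma, adjusted p = 1.00) and -0.70 ± 0.46 for Stat6_KO. The value of Il21e_KO 1 is 1 read, and without that library the change was -0.50. This peak averaged at least 10 reads per library only in WT, the genotype where it is high. At the Nfatc3 start the change of 0.44 ± 0.27 (limma, adjusted p = 1.00) became 0.06 without Il21e_KO 1. At the Nfat5 peak 40.1 kb before the start, WT had 8.57, 5.45 and 9.03 CPM, Il21e_KO 1.91, 6.93 and 8.32, and Stat6_KO 7.96, 9.42 and 7.95; the change of -0.51 ± 0.39 became 0.01 without it. The Nfatc2 peak past the gene's end had 33.7, 25.7 and 34.2 CPM in WT and 31.4, 20.8 and 22.7 in Il21e_KO, a change of -0.32 ± 0.20 that was -0.49 without Il21e_KO 1.

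**Figure D4:**
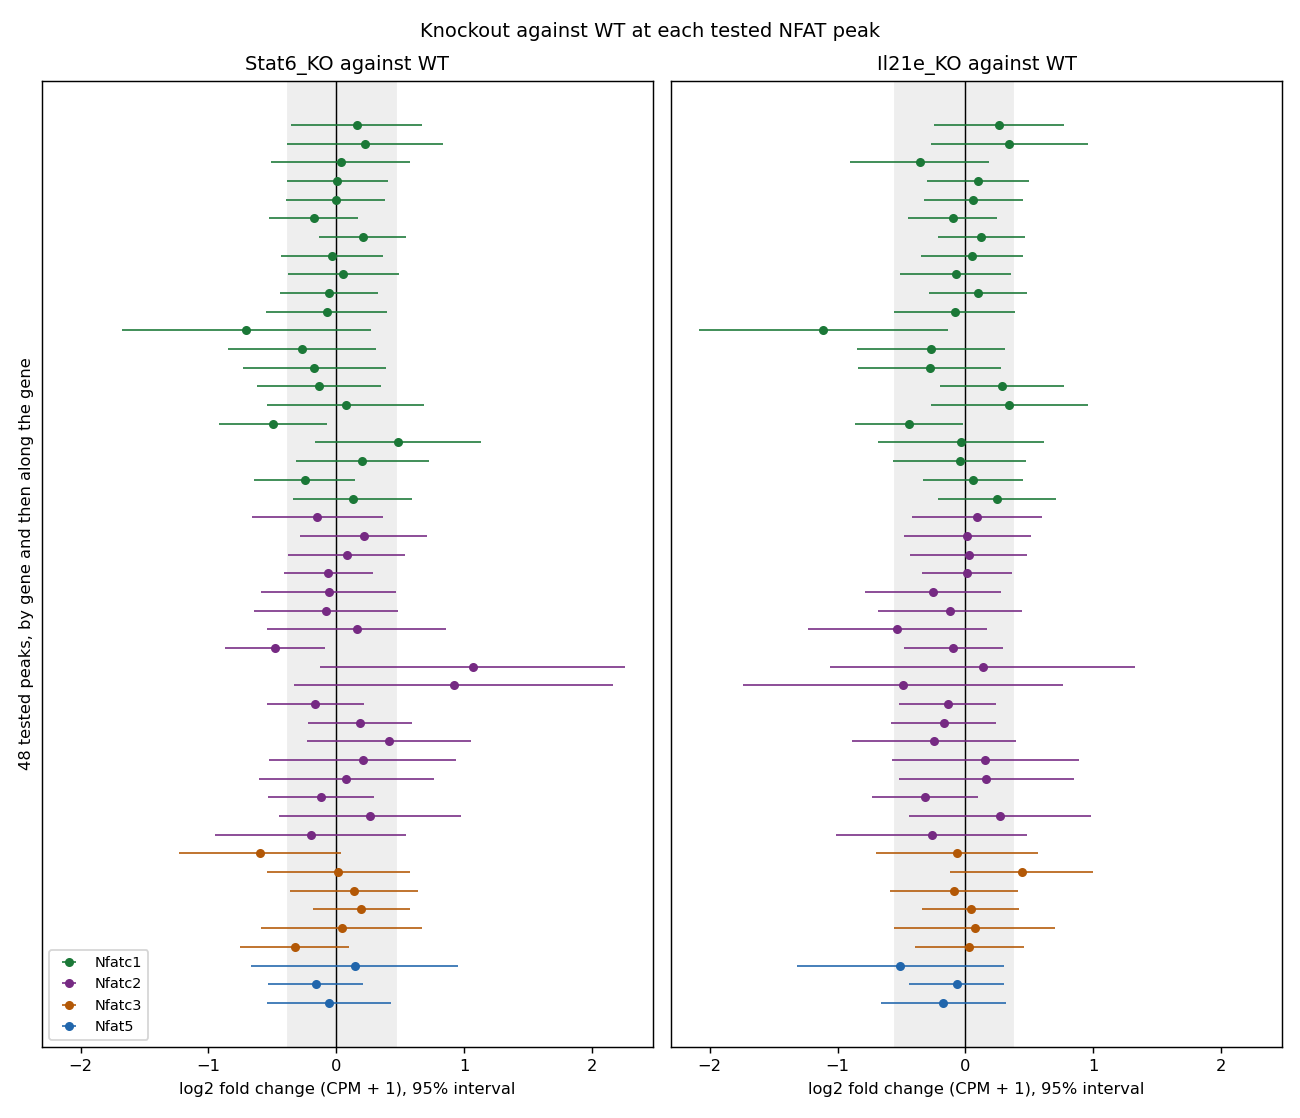
Log2 fold change of each of the 48 tested peaks with its 95% interval, in Stat6_KO against WT and in Il21e_KO against WT, ordered by gene and then from upstream to downstream along the gene. The grey band holds the middle 90% of the changes of all 48287 tested peaks. Points lie on both sides of 0 in each gene of the left panel, and the lowest point on the right, at -1.11, is the Nfatc1 intron 6 peak with 1 read in Il21e_KO 1.

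The direct comparison of the knockouts, Stat6_KO against Il21e_KO, gave 95% intervals of the fold of 0.873 to 1.06 at Nfatc1, 0.953 to 1.16 at Nfatc2, 0.870 to 1.17 at Nfatc3 and 0.834 to 1.28 at Nfat5 on the summed levels. By limma-trend 0 of the 4 genes passed (0% of all genes did), and 0 had an unadjusted p under 0.05 by limma-trend, edgeR, DESeq2 or limma-voom, against 5.43% of all genes by limma-trend. Of the 48 peaks 0 passed (0.0104% of all tested peaks did). At an unadjusted p under 0.05, limma-trend took 2 and edgeR, DESeq2 and limma-voom 1 each. Over all tested peaks the shares were 5.68%, 4.66%, 1.74% and 4.36% in the same order. The knockouts did not overlap at 6 peaks higher in Stat6_KO (12.5%, against 6.45% of all tested peaks) and 4 lower (8.33%, against 4.59%). Of the 6 higher peaks 4 are in Nfatc2, and the 4 lower ones are in Nfatc1 introns 2 and 9, 26.5 kb into Nfatc2 and in the DNA past Nfatc3. The median log2 change of the 48 peaks was 0.01, against 0.04 over all tested peaks.

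Among those 4 are neighbours about 1 kb apart, 38.4 and 39.5 kb into Nfatc2, with few reads each. The first (chr2:168388508-168388948), singled out after its values were seen, had 3.67, 0.779 and 5.80 CPM in WT, 0.953, 4.41 and 6.10 in Il21e_KO and 7.39, 7.07 and 6.73 in Stat6_KO. The second (chr2:168387473-168387897) had 3.06, 0.779 and 7.09 CPM in WT, 1.91, 1.26 and 2.22 in Il21e_KO and 6.25, 8.24 and 4.89 in Stat6_KO. Summed over libraries these are 16, 19 and 36 reads at the first and 17, 8 and 33 reads at the second for WT, Il21e_KO and Stat6_KO. Both averaged at least 10 reads per library in Stat6_KO only. The read filter thus kept them mainly for the genotype where they are high, and their being tested lends the difference no support. Stat6_KO was above Il21e_KO without overlap at both, by 0.93 ± 0.57 and 1.41 ± 0.59, each with an adjusted p of 0.780 in limma. Without Il21e_KO 1, which has 1 read at the first, the changes were 0.38 and 1.44. At Nfatc1 the smallest p was at the intron 9 peak 101 kb from the upstream start (-0.42 ± 0.23, adjusted p = 0.780, and -0.17 without Il21e_KO 1). At Nfatc3 it was the peak before the start (-0.53 ± 0.30, adjusted p = 0.780, and -0.13 without that library), and at Nfat5 the upstream intergenic peak (0.65 ± 0.39, adjusted p = 0.780, and 0.13 without it).

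The rest of the pathway was read from the same table by summed level, and no gene of any list passed limma-trend in any comparison; edgeR, DESeq2 and limma-voom called 0 of all genes tested as well. Of the 16 genes of calcium entry and calcineurin, from phospholipase Plcg1 and the calcium release channels Itpr1 to Itpr3 to the calcineurin subunits, 16 were tested. Their median log2 change was -0.06 in Stat6_KO against WT, -0.03 in Il21e_KO against WT and -0.05 in Stat6_KO against Il21e_KO, where all genes had -0.02, 0.01 and -0.02. At an unadjusted p under 0.05 limma-trend took 0, 1 and 2 of them, where it took 3.06%, 2.59% and 5.43% of all genes. They were Itpr3 at 0.18 ± 0.08 in Il21e_KO against WT, and, in Stat6_KO against Il21e_KO, Plcg1 at -0.17 ± 0.08 and Itpr2 at 0.13 ± 0.06. Of 16 inhibitors, export kinases and partners of NFAT 12 were tested, with medians of -0.08, -0.05 and -0.03. Those under 0.05 numbered 1, 0 and 2, beside the same shares of all genes. In Stat6_KO against WT it was Fkbp1a, the binding partner of the calcineurin inhibitor FK506, at -0.44 ± 0.18. In Stat6_KO against Il21e_KO they were the export kinases Gsk3a at -0.30 ± 0.14 and Dyrk1a at 0.22 ± 0.10. The changes of these pathway genes include Il21e_KO 1, and values without it are not given.

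Of 15 genes that NFAT switches on in T cells 14 were tested, with medians of -0.07, -0.09 and -0.03. Their summed level was 1092 to 1132 CPM in WT, 1034 to 1061 in Il21e_KO and 1026 to 1064 in Stat6_KO. WT thus lay above both knockouts in the sum, but the sum was not tested. The list was chosen with earlier results known, and how often sums of other genes separate in this way was not counted. By gene, 9 of the 14 changes were negative and 5 positive in Stat6_KO against WT. In Il21e_KO against WT these were 10 and 4. The summed CD8 T cell markers (3 of 4 genes listed) were also highest in WT, at 124 to 129.7 CPM, with 99.1 to 116 in Il21e_KO and 113 to 121 in Stat6_KO. Of 10 naive CD4 T cell markers 9 had a negative change in Stat6_KO against WT (median -0.13) and 3 in Il21e_KO against WT (median 0.02). In Stat6_KO against Il21e_KO all 10 were negative (median -0.16). Over all genes the medians were -0.02, 0.01 and -0.02. The part of these markers in the sums of the NFAT-driven genes was not tested. Tox, a transcription factor of persistently stimulated T cells, made up the largest part with 433 CPM over 57 peaks. Its mean was 462 CPM in WT, 410 in Il21e_KO and 426 in Stat6_KO, where the list averaged 1109, 1048 and 1042. Much of the gap in the sum thus lies at Tox. Tox was the only gene of the list with an unadjusted limma p under 0.05, in both comparisons with WT. That threshold took 3.06% and 2.59% of all genes, and Tox passed in neither comparison after adjustment. Its change was -0.12 ± 0.05 in Stat6_KO against WT and -0.17 ± 0.05 in Il21e_KO against WT, each with an adjusted p of 1.00 in limma-trend. Of 6 osmotic stress genes linked to Nfat5 5 were tested; their medians were -0.02, -0.0022 and 0.05, and limma-trend gave 0 of them an unadjusted p under 0.05 in any comparison.

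Across the 9 libraries, Pearson correlations between the members' summed levels, on log2(CPM + 1), ran from -0.46 (Nfatc1 with Nfat5) to 0.13 (Nfatc2 with Nfat5). Without Il21e_KO 1 they ran from -0.64 (Nfatc1 with Nfat5) to 0.52 (Nfatc2 with Nfatc3, -0.03 with it), so their order rests in part on that library. Among 11229 genes the most similar to Nfatc1 were Eif4enif1 (r = 0.857) and Mir5104 (0.855), to Nfatc2 Timm8a1 (0.917) and Prdm16 (0.915), to Nfatc3 Suv39h1 (0.943) and F12 (0.930), and to Nfat5 Rmdn2 (0.9504) and Notum (0.906). These are the highest of many correlations over 9 libraries that share depth and composition, and they are given as a description only. Without Il21e_KO 1 the leading genes became Mrps22 (0.971) and Fyn (0.969), Celf2 (0.941) and Dnajc10 (0.926), and Kdm1b (0.951) and Dfna5 (0.9498) for the first 3 members, while Rmdn2 (0.928) still led for Nfat5.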

How the data were processed

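The deposited table gives CPM for 115727 peaks on mm9 in 9 ATAC-seq libraries (75-base paired-end reads); per the submitters' processing notes the tools were Bowtie 1.3.0, MACS2 2.0 and HOMER, whose roles, and how peaks were merged, are not given in the sources used here. The headers of the annotation columns are shifted and were read by content. The authors scaled each library to its own reads in peaks, and 100% of values were whole multiples of 1 step per library (within 0.01 read), taken as 1 read. Depth is given in the report; the value of 3 reads covers counting error only, since PCR copies are not independent molecules.

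The genes and gene lists were chosen with earlier results of these data known; 1 gene of the B cell list is not reported here. Peaks kept by filterByExpr (minimum count 10, minimum total 15, edgeR 4.0.16) were tested on log2(CPM + 1) by the trended fit of limma 3.58.1 (limma-trend) in R 4.3.3, all 9 libraries in 1 fit, with Benjamini-Hochberg adjustment over all 48287 peaks and an FDR of 0.05; gene sums were tested likewise over 14039 genes. Log2 changes and intervals are on that scale, which understates changes of low peaks. Named peaks were each start-site peak, the 2 highest tested peaks elsewhere, and the smallest p per gene and comparison; likeness used tested genes of at least 20 CPM. Alternatives were edgeR and DESeq2 1.42.0 on recovered reads, limma-voom, other scalings, pseudocounts, filters, windows and left-out libraries. The fits were tested on simulated data. Same-numbered libraries correlated between -0.186 and 0.249 in their deviations, and were not treated as pairs.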

Additional observations from a re-analysis of the deposited data

How the results depend on the processing

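The counts of passing peaks and of passing genes were 0 in all 3 comparisons under all 23 alternatives for peaks and all 20 for genes, windows of 20 and 100 kb included; the lowest adjusted p was 0.166 for a peak and 0.474 for a gene. With the replicate number as a block the counts were 0 as well; the labels do not say that the number marks a pair, and same-numbered libraries did not deviate together throughout. Leaving out Il21e_KO 1 raised the calls over all peaks in Stat6_KO against WT from 5 to 63, and over all genes from 0 to 43, with 0 NFAT calls among them; array weights gave 108 and 95. Of 799 alternative values for 40 single log2 changes, 741 kept their sign and 58 over 19 results did not; the cause was not tested. In Stat6_KO against WT, the upstream Nfatc1 start moved from -0.0019 to 0.030 by edgeR, 0.030 by DESeq2, 0.00073 by limma-voom, 0.080 with cyclic loess, 0.0059 with array weights and 0.00093 with a pseudocount of 5 (-0.15 to 0.19 with 1 library left out). The downstream Nfatc2 start moved from -0.060 to 0.061 with cyclic loess (-0.14 to 0.054), and the Nfatc3 start from 0.017 to -0.0075 with TMM and -0.049 with array weights (-0.15 to 0.19). The Nfatc2 sum ran from -0.031 to 0.060 and the Nfat5 sum from -0.20 to 0.017 with 1 library left out. In Il21e_KO against WT, array weights turned the downstream Nfatc2 start from 0.013 to -0.14 (-0.14 to 0.17) and the Nfat5 start from -0.068 to 0.015 (-0.17 to 0.087); the Nfatc1 sum became 0.011 with cyclic loess and 0.0061 with array weights (-0.074 to 0.051). With 1 library left out, the upstream Nfatc1 start ran from -0.010 to 0.13, the downstream one from -0.23 to 0.033, the upstream Nfatc2 start from -0.25 to 0.24 and the Nfat5 intergenic peak from -0.83 to 0.013. In Stat6_KO against Il21e_KO, cyclic loess gave 0.048 and 0.045 at the upstream and downstream Nfatc1 starts, 0.047 at the downstream Nfatc2 start and 0.023 at the Nfat5 start, and array weights 0.035 at the downstream Nfatc1 start, 0.039 at the downstream Nfatc2 start and -0.047 for the Nfat5 sum. With 1 library left out these ran from -0.21 to 0.13 and -0.18 to 0.040 at the Nfatc1 starts, -0.021 to 0.46 and -0.23 to 0.079 at the Nfatc2 starts, -0.25 to 0.00018 at the Nfat5 start, -0.035 to 0.088 for the Nfatc3 sum and -0.053 to 0.11 for the Nfat5 sum. The Nfatc2 peak 39.5 kb into the gene had too few reads for a fit of the 2 knockouts alone. A fit that leaves out 1 library assumes that group to vary like the others. Depth limits the 63 untested peaks, where 3 reads equal 1.66 to 2.86 CPM.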
